A study of Homo sapiens with 10 samples.

Results

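Keratins were examined in C33A cells, a cervical carcinoma line with little endogenous BRG1 or BRM, the alternative ATPases of the SWI/SNF chromatin remodelling complex. The 10 genes described here are KRT80, KRT7, KRT8, KRT18, KRT19, KRT10, KRT17, KRT81, KRT86 and KRT15, and they were found by symbol among the 63152 genes of each expression table. KRT80 was chosen by its deposited p-value in BRG1-wt, the smallest of all genes there, and the other 9 because they are keratins. All members were selected with results of these data known, so their values in BRG1-wt against control are given as a description, with no test. The question the design puts to them is whether their RNA differed with BRG1 or BRM in the cell, and whether it did so when the ATPase carried a point mutation in its ATPase domain.

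Cells were harvested 48 h after transient transfection with 1 of 5 plasmids, with 2 libraries per group. Control cells received the plasmid pOPRSVI, BRG1-wt cells pBJ5-BRG1, BRG1-mut cells pBJ5-BRG1-K798R, BRM-wt cells pCG-hBrm, and BRM-mut cells pCG-hBrm-K798R. Control, BRG1 and BRM plasmids have different backbones, and the effect of the backbone and that of the ATPase cannot be told apart in a comparison with control, while wild type and mutant of 1 ATPase share a backbone. All cells come from 1 line, and all 4 comparisons with control use the same 2 control libraries. Nothing in the labels says that the 2 libraries of a group come from separate cultures, so p-values measure the spread between these libraries, which may be technical. In RNA from a whole transfected culture, a change in the share of cells that express a gene and a change in RNA per cell cannot be told apart.

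Keratins are the intermediate filament proteins of epithelial cells, and they assemble as pairs of a basic type II and an acidic type I chain. Type II genes (KRT80, KRT7, KRT8, KRT81 and KRT86 here) lie in a cluster on chromosome 12, and type I genes (KRT10, KRT15, KRT17 and KRT19) in a cluster on chromosome 17, while KRT18, a type I gene, lies beside its partner KRT8 on chromosome 12. KRT8 and KRT18 form the filaments of simple epithelia, KRT7 and KRT19 mark many glandular and ductal epithelia, KRT10 belongs to differentiating epidermis, KRT15 and KRT17 to basal and appendage cells, and KRT81 and KRT86 to hair. KRT80 is an epithelial type II keratin that is found in many tissues.

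The deposited tables give for each gene a base mean over 4 libraries, which was resolved into the read counts of the 10 libraries for 100% of the genes. The 2 libraries of a group are called a and b, letters that carry no replicate number. Total gene counts were between 30887831 and 43344915 per library. SMARCA4, which encodes BRG1, had 46527 to 65524 counts in the 4 BRG1 libraries and 1646 to 5469 in the other 6, and SMARCA2, which encodes BRM, had 43748 to 222526 counts in the 4 BRM libraries and 3 to 14 elsewhere. Within BRM-wt, SMARCA2 had 43748 counts in library a and 214220 in library b. Libraries differed in how the level of a gene moved with its exonic GC content: the Spearman correlation of the log2 difference from control with GC content across 11737 genes ran from 0.811 in BRG1-mut library a to −0.801 in BRM-mut library b, and in BRM-wt it was 0.771 in library a and −0.733 in library b. Keratins are rich in GC (52.1% to 62.3% of the exonic bases of the members), so values with the GC trend of each library subtracted are given beside those without. Of the markers of other epithelial or mesenchymal identity, VIM (vimentin) had 10580 to 15565 counts per library, EPCAM 18 to 43, CDH1 (E-cadherin) 2 to 13, TP63 0 to 8 and KRT14 0 or 1, and KRT5 had no count in any library. CDH1 was low throughout but not even, with 3 and 2 counts in control, 8 and 13 in BRG1-wt, 2 and 5 in BRG1-mut, 5 and 12 in BRM-wt and 9 and 8 in BRM-mut. In BRM-wt, CDH1 and VIM had an unadjusted p under 0.05 by limma-voom with the GC trend subtracted, and neither was called (adjusted p = 0.39 and 0.62). By the same fit CDH1 also had an unadjusted p under 0.05 in BRM-mut and was not called there. Its log2 difference from control was 1.53 in BRM-mut, 1.63 in BRM-wt and 1.84 in BRG1-wt. The part of CDH1 and VIM in the keratin values was not tested. The simple epithelial keratins KRT8 and KRT18 were detected in every control library, and KRT7 and KRT19 in none.

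KRT80 (ENSG00000167767; GRCh37 12:52562780-52585798, minus strand, canonical transcript of 9 exons and 3873 bases) went from 2 reads per library in control to at least 310 with either wild-type ATPase. It had 2 and 2 counts in the control libraries. With BRG1-wt it had 477 and 604 counts, and with BRM-wt 476 and 310. With the mutants it had 13 and 4 counts (BRG1-mut) and 8 and 0 counts (BRM-mut). Each wild-type library lies far above all 6 control and mutant libraries, and no value falls between 13 and 310 counts.

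In counts divided by size factors (normalised counts), KRT80 was 2.01 ± 0.10 in control (SD, n = 2 here and for all normalised means below), 515 ± 32.4 in BRG1-wt, 432 ± 217 in BRM-wt, 8.26 ± 5.44 in BRG1-mut and 3.46 ± 4.89 in BRM-mut. In the order BRG1-wt, BRM-wt, BRG1-mut, BRM-mut, control, the first 2 groups overlap, as do BRG1-mut with BRM-mut and BRM-mut with control, while BRG1-mut does not overlap control. Pooled over libraries, the ratio to control was 203 in BRM-wt, with an exact 95% interval from 79.1 to 748 that covers counting error only and is wide because control had 4 counts in all. For BRG1-mut the ratio was 4.29 (interval 1.40 to 17.5), and for BRM-mut 1.85 (0.497 to 8.41). From base means alone, which need no counts per library, the level in BRM-wt was at least 79.0-fold that of control with tables scaled by median ratios, at least 73.7-fold with no scaling and at least 70.7-fold with GC-matched scaling.

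The deposited log2 fold change of KRT80 in BRM-wt was 2.45 (SE 0.28, adjusted p = 2.07e-14, Wald test of DESeq2 as run by the authors), with both BRM-wt libraries above both control libraries. The control libraries are those of the contrast that chose KRT80, and the gene passed the filter on low counts there through BRM-wt alone, so this p is not independent of the choice. Those fold changes are shrunken towards 0, and the log2 ratio of mean normalised counts for the same comparison was 7.75. In BRG1-wt the deposited log2 fold change was 3.19 (SE 0.19) and the log2 ratio of means 8.01. In BRG1-mut the deposited value was 0.40 (SE 0.31), with no adjusted p because the gene fell under the authors' filter on low counts, and in BRM-mut 0.01 (SE 0.04, adjusted p = 1.00, DESeq2). LINC00592, a long non-coding RNA that overlaps KRT80 on the other strand, had 9 and 11 counts in BRG1-wt, 1 and 5 in BRM-wt and 0 to 4 in the other libraries. Whether reads were counted by strand is not given in the sources used here, so reads in the shared stretch cannot be assigned between them.

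**Figure D1:**
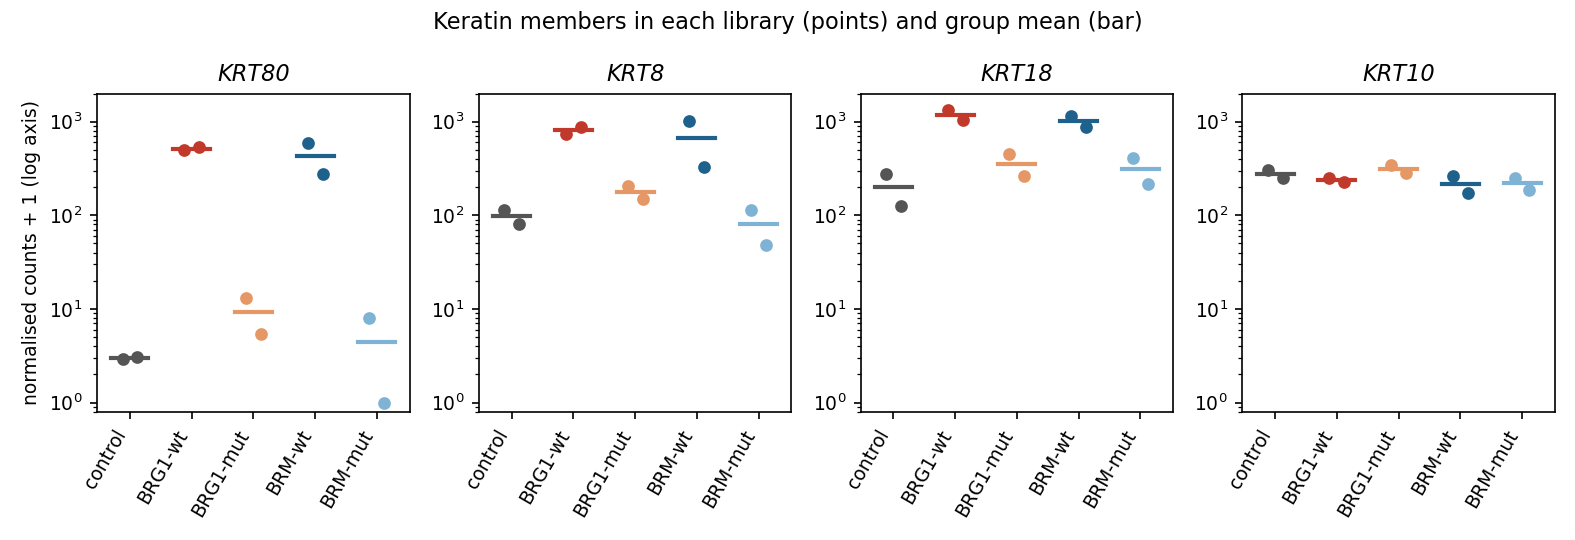
Normalised counts plus 1 (log axis) of KRT80, KRT8, KRT18 and KRT10 in the 10 libraries, with points for the 2 libraries of each group and a bar for their mean. KRT80 stands at 515 in BRG1-wt and 432 in BRM-wt against 8.26 or less in the other groups, KRT8 and KRT18 rise from a level already present in control, and KRT10 stays between 217 and 313.

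KRT8 (ENSG00000170421; GRCh37 12:53290971-53343738, minus strand), the type II partner of KRT18, was present in control and higher in both wild-type groups. It had 116 and 77 counts in control, 706 and 990 in BRG1-wt, 822 and 368 in BRM-wt, 217 and 136 in BRG1-mut, and 131 and 47 in BRM-mut. The lowest wild-type library (368) is above the highest of the other 6 libraries (217), and BRM-mut overlaps control while BRG1-mut lies above it. Normalised counts were 96.1 ± 23.1 in control, 806 ± 108 in BRG1-wt, 670 ± 482 in BRM-wt, 176 ± 36.8 in BRG1-mut and 80.2 ± 46.7 in BRM-mut.

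Against control, KRT8 had a deposited log2 fold change of 1.18 in BRM-wt (SE 0.28, adjusted p = 0.0068, DESeq2), with the log2 ratio of means at 2.80 and both libraries above both controls. In BRG1-mut it was 0.69 (SE 0.30, adjusted p = 0.17, DESeq2) and in BRM-mut −0.06 (SE 0.14, adjusted p = 1.00, DESeq2). In BRG1-wt, as a description, it was 2.03 (SE 0.18). The 2 BRM-wt libraries stood at 1011 and 330 normalised KRT8 counts, and once the GC trend of each library is subtracted they stand at 782 and 462.

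KRT18 (ENSG00000111057; GRCh37 12:53342655-53346690, plus strand), the type I partner, had the most reads of all keratins in the 4 wild-type libraries. It had 283 and 119 counts in control, 1274 and 1167 in BRG1-wt, 942 and 982 in BRM-wt, 478 and 235 in BRG1-mut, and 476 and 213 in BRM-mut. All 4 wild-type libraries lie above the other 6, and both mutant groups overlap control in normalised counts. With the GC trend subtracted, BRM-mut (412 and 318) lies above control (254 and 146), and BRG1-mut (336 and 221) still overlaps it. Normalised counts without the subtraction were 199 ± 107 in control, 1178 ± 195 in BRG1-wt, 1019 ± 197 in BRM-wt, 352 ± 131 in BRG1-mut and 313 ± 140 in BRM-mut.

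The deposited log2 fold change of KRT18 was 1.25 in BRM-wt (SE 0.28, adjusted p = 0.0029, DESeq2), with the log2 ratio of means at 2.36. It was 0.60 in BRG1-mut (SE 0.33, adjusted p = 0.39, DESeq2), 0.17 in BRM-mut (SE 0.14, adjusted p = 1.00, DESeq2) and, as a description, 1.37 in BRG1-wt (SE 0.19). The ratio of KRT18 to KRT8 counts was 2.44 and 1.55 in control, 1.80 and 1.18 in BRG1-wt, 1.15 and 2.67 in BRM-wt, 2.20 and 1.73 in BRG1-mut, and 3.63 and 4.53 in BRM-mut. The wild-type groups thus overlap control in this ratio, and BRM-mut has the highest values in both of its libraries. KRT8 and KRT18 overlap at their 5′ ends on opposite strands, so reads in the shared stretch cannot be assigned without the strand.

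Compared per kilobase of canonical transcript, KRT18 had 141 normalised counts in control, KRT10 had 129, KRT8 had 53.9 and KRT80 had 0.52. In BRM-wt the same quantity was 721 for KRT18, 376 for KRT8, 111 for KRT80 and 101 for KRT10. KRT80 thus moved from the bottom of these 4 genes to the level of KRT10, while KRT18 stood highest in both groups.

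KRT10 (ENSG00000186395; GRCh37 17:38974369-38978866, minus strand), the type I keratin of differentiating epidermis, did not follow the other 3. It had 312 and 243 counts in control, 243 and 253 in BRG1-wt, 213 and 193 in BRM-wt, 369 and 256 in BRG1-mut, and 292 and 186 in BRM-mut. In normalised counts BRM-wt and BRM-mut overlap control, and so does BRG1-mut, while the higher BRG1-wt library (251) is just under the lower control (252). With the GC trend subtracted, KRT10 stood at 290 and 264 in control, 237 and 201 in BRM-wt, 252 and 216 in BRM-mut, 242 and 226 in BRG1-wt, and 309 and 263 in BRG1-mut, so that BRM-wt and BRM-mut lie below control too. The BRM-wt difference from control was then −0.35 on the log2 scale (SE 0.16, adjusted p = 0.65, limma-voom). The deposited log2 fold change was −0.22 in BRM-wt (SE 0.27, adjusted p = 1.00, DESeq2), 0.15 in BRG1-mut (SE 0.24, adjusted p = 0.79, DESeq2) and −0.16 in BRM-mut (SE 0.16, adjusted p = 1.00, DESeq2). The antisense gene KRT10-AS1 had 445 to 745 counts in each library, more than KRT10 itself in all 10, and reads in their shared stretch cannot be assigned without the strand.

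For the RefSeq promoter table (GRCh38.p14) the entries of 2 of the 10 members were found, KRT8 and KRT10, which are shown as a pair because the first was higher with the wild-type ATPases and the second was not. Each line gives the 250 bases before the 1 gene start that the table lists, from 5′ to 3′, with matches to a set of motifs in capitals.
KRT8 (chr12:52926470-52926719, minus strand): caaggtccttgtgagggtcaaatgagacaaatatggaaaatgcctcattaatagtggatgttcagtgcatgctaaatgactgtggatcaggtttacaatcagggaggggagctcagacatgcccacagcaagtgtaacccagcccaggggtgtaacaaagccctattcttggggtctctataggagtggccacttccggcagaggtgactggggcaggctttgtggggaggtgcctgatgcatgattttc
KRT10 (chr17:40822615-40822864, minus strand): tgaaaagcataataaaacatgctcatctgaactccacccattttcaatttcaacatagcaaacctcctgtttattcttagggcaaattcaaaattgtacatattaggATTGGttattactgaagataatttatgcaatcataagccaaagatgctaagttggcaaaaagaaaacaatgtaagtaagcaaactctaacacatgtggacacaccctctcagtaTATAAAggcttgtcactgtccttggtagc

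Both strands were searched for AP-1 (TGANTCA), TEAD (GGAATG), the GC box (GGGCGG), the TATA box (TATAAA), the CCAAT box (CCAAT) and the E-box (CANNTG), the last of which is not in capitals. The KRT8 window holds no match but 2 E-boxes. The KRT10 window holds a TATA box that begins 29 bases before the start, a CCAAT box on the reverse strand and 3 E-boxes, a pair of which overlap. Among 35116 promoters of the same length, 6.57% hold AP-1, 11.9% TEAD, 42.6% the GC box, 10.7% the TATA box, 32.0% the CCAAT box and 61.8% an E-box. KRT8 has several annotated starts, and which of them gave these reads was not tested. Whether the start shown is that of the canonical KRT8 transcript was not tested either. The KRT8 window may therefore not be the promoter of most KRT8 RNA.

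The other 6 members were at the limit of detection. KRT7 (12:52626304-52645970, plus strand) had 6 and 14 counts in BRG1-wt, 1 and 1 in BRM-wt, and 0 in the 6 control and mutant libraries. Set against the limit of 3 counts that a count of 0 allows over both control libraries, its level in BRG1-wt was at least 6.21-fold higher than control. KRT19 (17:39679869-39684560, minus strand) had 3 and 2 counts in BRG1-wt, 4 and 0 in BRM-wt, and none elsewhere.

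KRT15 (17:39669997-39678781, minus strand) had 2 and 9 counts in BRG1-wt, 2 and 0 in BRM-wt, 0 and 1 in BRG1-mut, and none in control or BRM-mut. KRT17 (17:39775694-39781094, minus strand) had 2 and 0 counts in control, 1 and 0 in BRG1-wt and none elsewhere. KRT81 (12:52679697-52685318, minus strand) had 1 count, in BRM-wt library b, and its near-identical neighbour KRT86 (12:52643084-52702947, plus strand) had 0 in all 10 libraries, where a count of 0 allows up to 3 counts per library. For KRT7, KRT19 and KRT15 most reads lie in wild-type libraries, but in BRM-wt these genes fell under the authors' filter on low counts and have no adjusted p.

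In all, 9 of the 10 members had at least 1 count. In BRM-wt, 4 members had an adjusted p and 3 of them (KRT80, KRT8 and KRT18) were called at an adjusted p under 0.05, all higher, where 101 of 17805 genes (0.567%) were called. In BRG1-mut, 0 of the 3 members with an adjusted p were called by DESeq2, where 658 of 13548 genes (4.86%) were called, and in BRM-mut 0 of 5, where 2 of 28464 genes (0.00703%) were called. At an unadjusted p under 0.05, 1 of 6 members with a p-value passed in BRG1-mut (KRT8) and 0 of 5 in BRM-mut by the deposited test, where 7.92% and 0.0632% of all genes did. In BRG1-wt, the comparison that chose KRT80, 3 of 4 members with an adjusted p were called, where 253 of 18391 genes (1.38%) were. Members that pass the filter on low counts only because a wild-type group is high had to differ, so the shares of called members are a description.

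The recovered counts were also fitted together by limma-voom, 10 libraries in 1 model over 17943 genes. Without a correction for GC content no member was called in BRM-wt against control, where 29 genes (0.162%) were, with the adjusted p of KRT80 at 0.10, of KRT18 at 0.15 and of KRT8 at 0.35; 3 members (KRT80, KRT8 and KRT18) had an unadjusted p under 0.05. With the GC trend of each library subtracted, all 3 were called, where 160 genes (0.892%) were. The log2 difference was 7.32 for KRT80 (SE 0.73, adjusted p = 0.0048, limma-voom), 2.57 for KRT8 (SE 0.33, adjusted p = 0.013) and 2.46 for KRT18 (SE 0.30, adjusted p = 0.012). Without it they were 7.30, 2.55 and 2.43, and the standard error of KRT80 was 1.18. After the subtraction, KRT80 stood at 428 and 422 in the 2 BRM-wt libraries, which without it were at 585 and 278. The control libraries are again those of the contrast that chose KRT80. KRT80 also passed the filter on low counts through wild-type libraries alone, so its p-values against control are not independent of the choice.

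Those calls rest on both control libraries. Without control library a the log2 differences in BRM-wt were 7.06 for KRT80, 2.64 for KRT8 and 2.86 for KRT18 with adjusted p of 0.10, 0.17 and 0.074 (limma-voom, GC trend subtracted), and without control library b they were 7.59, 2.53 and 2.10 with adjusted p of 0.077, 0.12 and 0.11. In these fits the lone control library is assumed to vary like the other groups. In the GC-subtracted fit no member was called in BRG1-mut, where 1 gene (0.00557%) was, or in BRM-mut, where 0 genes (0%) were, and of the members only KRT18 in BRM-mut had an unadjusted p under 0.05, with a log2 difference of 0.91 (SE 0.33, adjusted p = 1.00).

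**Figure D2:**
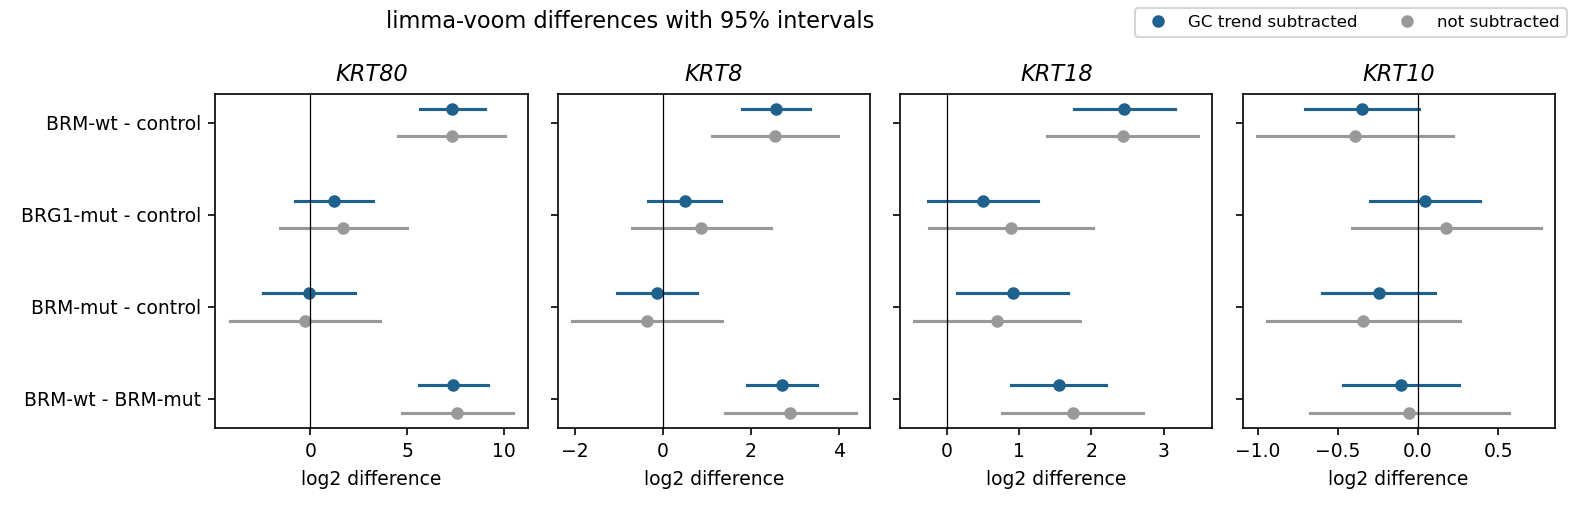
Log2 differences from limma-voom with 95% intervals for KRT80, KRT8, KRT18 and KRT10 in 4 contrasts, with the GC trend of each library subtracted (blue) or not (grey), on a separate axis for each gene. The KRT80 difference between BRM-wt and BRM-mut is 7.39 with the trend subtracted and 7.60 without, the grey intervals are wider, and all intervals of KRT10 include 0.

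Wild type and mutant of BRM were carried by plasmids of the same backbone and were compared directly, with the GC trend subtracted. KRT80 was higher in BRM-wt by 7.39 on the log2 scale (SE 0.77, 95% interval 5.62 to 9.16, adjusted p = 0.0059, limma-voom) and KRT8 by 2.71 (SE 0.34, interval 1.92 to 3.50, adjusted p = 0.012). KRT80 entered this fit through wild-type libraries alone. The variance of a gene is estimated from all libraries of the fit, those that chose KRT80 included. The p-values of KRT80 in this contrast are therefore not independent of the choice either. KRT18 was higher by 1.55 (SE 0.28, interval 0.89 to 2.20), which did not pass the correction (adjusted p = 0.061, limma-voom). With 1 library left out at a time, the KRT18 difference ran from 1.35 to 1.78 in the GC-subtracted fit. KRT10 differed by −0.11 (interval −0.47 to 0.26, adjusted p = 0.98). Of 17943 genes, 153 (0.853%) were called in this contrast, and 30 (0.167%) without the GC subtraction, when no member was: KRT80 then had an adjusted p of 0.098, KRT8 of 0.24 and KRT18 of 0.32. With no filter on low counts KRT80 passed without the subtraction (7.71, adjusted p = 0.039, limma-voom). Without BRM-mut library a the KRT8 difference was 3.06 (adjusted p = 0.094) and without BRM-mut library b 2.40 (adjusted p = 0.10), while KRT80 stayed under 0.05 without any 1 library in the GC-subtracted fit.

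Further differences use the BRG1-wt libraries and are given as a description. Between BRG1-wt and BRG1-mut, KRT80 differed by 6.29 (SE 0.53), KRT8 by 2.43 (SE 0.30) and KRT18 by 1.99 (SE 0.28) on the log2 scale with the GC trend subtracted. Between BRG1-wt and BRM-wt the log2 differences were 0.17 (SE 0.24) for KRT80, 0.35 (SE 0.26) for KRT8 and 0.04 (SE 0.24) for KRT18 on the same scale, with 95% intervals of −0.38 to 0.73, −0.24 to 0.95 and −0.52 to 0.60.

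**Figure D3:**
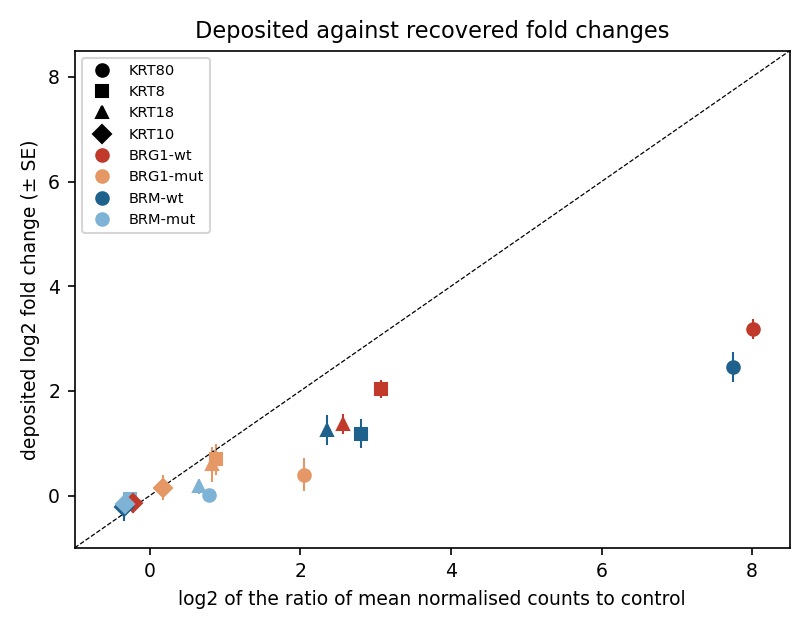
Deposited log2 fold change (with SE) against the log2 ratio of mean normalised counts to control, for KRT80, KRT8, KRT18 and KRT10 in the 4 ATPase groups, with a dashed line of equality. KRT80 lies farthest under the line (2.45 against 7.75 in BRM-wt and 3.19 against 8.01 in BRG1-wt), KRT8 and KRT18 less so, and KRT10 on it or close to it.

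The whole family held 55 protein-coding keratin genes, of which 29 had at least 1 count in any library. The 27 genes of chromosome 12 had 9 of these and the 28 of chromosome 17 had 20. Summed over the family, keratin counts per 1000000 gene counts of a library were 19.0 and 12.6 in control, 77.8 and 74.0 in BRG1-wt, 81.4 and 44.1 in BRM-wt, 26.9 and 19.1 in BRG1-mut, and 21.4 and 11.8 in BRM-mut. The wild-type libraries lie above all others. In them most of the sum is the counts of KRT80, KRT8 and KRT18 already given, so it is not a separate result. The 3 genes called in BRM-wt were the only ones of the family called in any of the 4 deposited tables. Few of the 55 genes could be called. Family genes with an adjusted p numbered 5 for BRG1-wt, 3 for BRG1-mut, 5 for BRM-wt and 15 for BRM-mut. Of all genes with an adjusted p, 1.38%, 4.86%, 0.567% and 0.00703% were called, in the same order. For family genes without an adjusted p, the lack of a call does not show that they stayed unchanged. Of the genes outside the 10 members, KRT4, a keratin of mucosal epithelia, had most reads, with 0 and 4 counts in control, 11 and 37 in BRG1-wt, 40 and 14 in BRM-wt, 2 and 11 in BRG1-mut, and 7 and 2 in BRM-mut, where BRM-wt lies above control and BRG1-mut overlaps it. KRT13, its type I partner, had 5 and 4 counts in BRG1-wt, 5 and 1 in BRM-wt and none in the other 6 libraries. KRT4 and KRT13 are named after their values were seen.

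**Figure D4:**
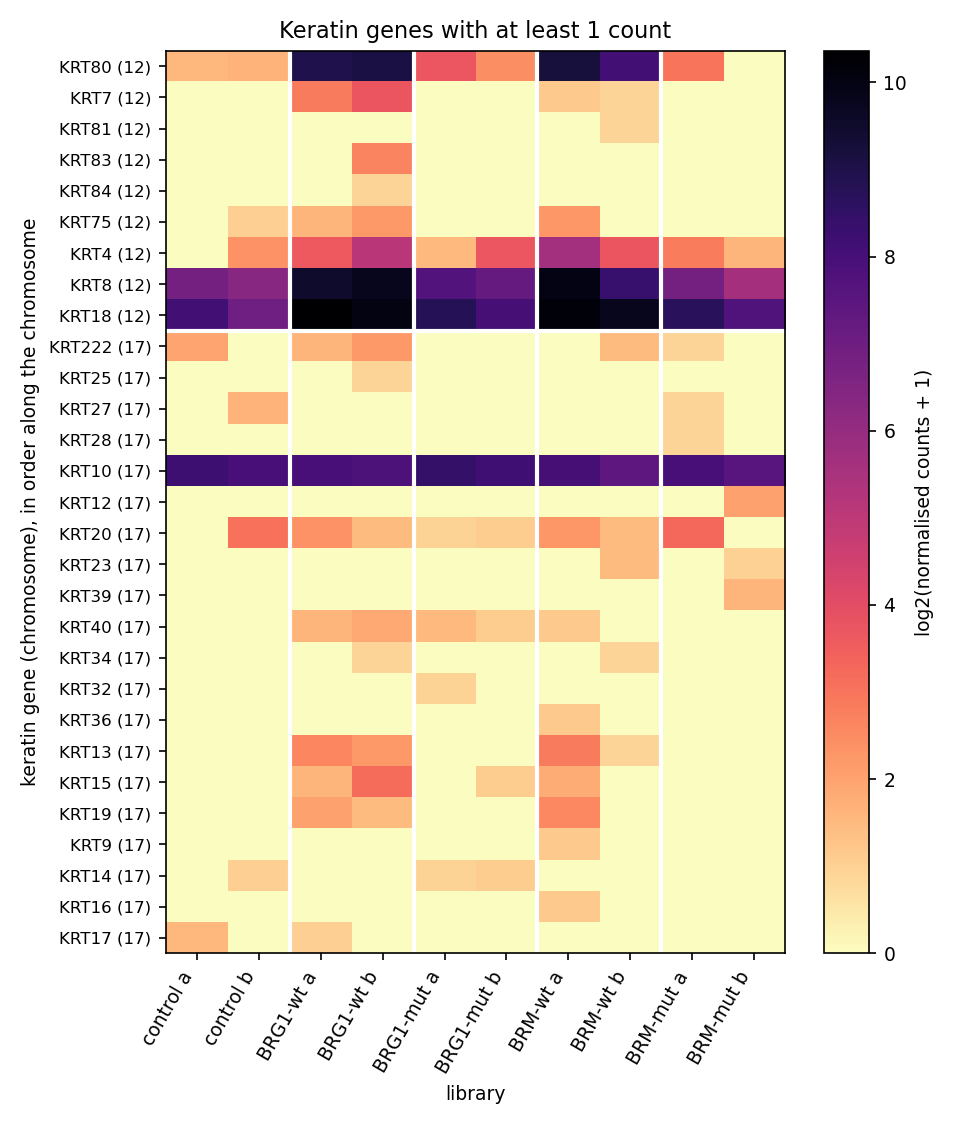
Log2 of normalised counts plus 1 for the 29 keratin genes with at least 1 count, in order along chromosomes 12 and 17 (rows), in the 10 libraries (columns). KRT80, KRT8 and KRT18 are dark in the 4 wild-type libraries, KRT10 is even across all 10, and the other rows hold at most 40 counts in a library.

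Between the first and last keratin gene of the chromosome 12 cluster lie 16 genes that are not keratins, and in that of chromosome 17 lie 51; 5 in each had at least 1 count, and 0 were called in any table (DESeq2), with 0 at an unadjusted p under 0.05 there or by limma-voom, which tested 1 of them. The members that rose lie at both ends of the chromosome 12 cluster, KRT80 at its start and KRT8 with KRT18 at its end. KRT4 lies between them, with an unadjusted p of 0.025 in BRM-wt and 0.038 in BRG1-wt (DESeq2). No gene between these ends was called, but the non-keratin genes had at most 88 counts over all libraries. With so few reads, the lack of calls does not show that these genes stayed unchanged.

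Processed pseudogenes share nearly all of their sequence with their parent gene, so reads can be split between them, and how reads with several matches were treated is not given in the sources used here. The annotation lists 51 pseudogenes of KRT8 and 67 of KRT18 in the tables, 22 and 28 of them with a count. Summed pseudogene counts of KRT8 were 340 to 403 in control and 381 to 668 in the wild-type libraries, which is 347% to 442% of the KRT8 counts in control and 60.9% to 104% in the wild-type libraries. For KRT18 the sums were 83 to 118 counts in control and 129 to 219 in the wild-type libraries. KRT8P3, which had 13 and 16 counts in control, 102 and 48 in BRM-wt and 7 and 1 in BRM-mut, was higher in BRM-wt with the GC trend subtracted (log2 difference 2.32, adjusted p = 0.045, limma-voom) and missed the threshold in the deposited table (log2 fold change 0.85, adjusted p = 0.21, DESeq2). In BRG1-wt it had 91 and 136 counts, and it is the only pseudogene of either parent called in a deposited table, there alone. Whether its reads come from KRT8 was not tested.

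Genes that work with keratins were described from lists. By DESeq2, 0.567% of all genes with an adjusted p were called in BRM-wt and 1.38% in BRG1-wt. Of the 18 desmosome and linker genes, which anchor keratin filaments at cell junctions, 0 of 12 with an adjusted p were called in BRM-wt by DESeq2, and the median log2 fold change was 0.13 against 0.01 over all genes tested. In BRG1-wt 1 of 12 was called, periplakin (PPL), with 72 and 70 counts in control and 165 and 243 in BRG1-wt. PPL had 228 and 117 counts in BRM-wt, 126 and 98 in BRG1-mut and 66 and 64 in BRM-mut. Its unadjusted p in BRM-wt was under 0.05 (DESeq2), without a call. Among 7 hemidesmosome genes, which tie filaments to the basement membrane, 0 of 7 were called in BRM-wt in the deposited table, with a median of 0.14. LAMB3, a laminin chain named after its values were seen, had 29 and 13 counts in BRM-wt and none in control, and was called in BRM-wt by limma-voom with the GC trend subtracted (log2 difference 5.33, SE 0.87, adjusted p = 0.037) and not without the subtraction. With no reads in control, LAMB3 passed the filter on low counts through other groups, so its call is a description.

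Of 12 other cytoplasmic intermediate filament genes in the files, 1 of 8 with an adjusted p was called in BRM-wt, SYNM (synemin, a filament linker), and the median of the 8 was 0.16. Over all genes with an adjusted p, 0.567% were called there. SYNM had 964 and 1218 counts in control, 2782 and 3664 in BRM-wt, 1123 and 1168 in BRM-mut, 1087 and 1170 in BRG1-mut, and 2901 and 4074 in BRG1-wt. Both BRM-wt libraries lie above both controls (deposited log2 fold change 1.15, SE 0.25, adjusted p = 0.0021, DESeq2), and the mutants overlap control. VIM, by contrast, had a log2 fold change of 0.16 in BRM-wt (SE 0.24, adjusted p = 1.00, DESeq2).

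The cornified envelope list (16 genes), the epithelial transcription factors (16 genes) and the AP-1 subunits (7 genes) had 0 genes called in BRM-wt among 3, 8 and 7 with an adjusted p, with medians of 0.42, 0.20 and 0.26. In BRG1-mut 1 gene of each of 3 lists was called in the deposited table: CD151 of the hemidesmosome list (log2 fold change 0.93), TGM1, the keratinocyte transglutaminase (1.19), and JUNB (1.24), each with an adjusted p of 0.032 to 0.035 (DESeq2). The hemidesmosome, cornified envelope and AP-1 lists had 4, 1 and 7 genes with an adjusted p there, where 4.86% of all genes were called. CD151 had 5729 and 4002 counts in BRG1-mut against 3097 and 1408 in the control libraries. By limma-voom none of these 3 genes was called in BRG1-mut, with or without the GC trend subtracted. With it the log2 differences were 0.18 for CD151, 1.17 for TGM1 and 0.65 for JUNB (adjusted p = 0.95 for each, limma-voom). Subtracting the GC trend from the deposited log2 fold changes left 0.12 for CD151 and 0.30 for JUNB, and TGM1 was below the base mean of 100 needed for it. In BRM-mut no gene of any list was called in the deposited table, which called 2 genes in all. Over the 6 lists together, 7 of 62 genes with a p-value had an unadjusted p under 0.05 in BRM-wt in the deposited table, 9 of 64 in BRG1-mut and 0 of 62 in BRM-mut, where 1.40%, 7.92% and 0.0632% of all genes with a p-value did. By limma-voom with the GC trend subtracted these were 15, 5 and 1 of 46 genes, beside 7.95%, 3.66% and 1.73% of all genes, and 2 (SYNM and LAMB3), 0 and 0 of the listed genes were called.

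Among the 5 genes whose pattern was most like that of KRT80, by Euclidean distance over the 4 deposited log2 fold changes among 11646 genes whose base mean reached 100 in all 4 tables, were MMP1 (interstitial collagenase), F3 (tissue factor), MATN2 (matrilin-2) and MYO10 (an unconventional myosin). The distances of these 4 were 1.45 to 1.78 log2 units. KRT8 was not among the genes compared, since its base mean in BRM-mut was 90.8, and its distance to KRT80 was 1.74. KRT80 itself was below 100 in BRG1-mut (5.05) and BRM-mut (2.81). Other genes as low as KRT80 without a wild-type ATPase were therefore not compared, and whether any lies closer was not tested. MMP1 had log2 fold changes of 1.96 in BRG1-wt, 1.84 in BRM-wt, −0.07 in BRG1-mut and 0.08 in BRM-mut. Its counts were 135 and 108 in control, 905 and 846 in BRG1-wt, 661 and 1771 in BRM-wt, 129 and 100 in BRG1-mut, and 150 and 146 in BRM-mut.

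Splicing was described from the exon events that the authors compared by MISO, in which PSI gives the included fraction of an exon. Of 8 comparisons of an ATPase library with the control of the same replicate number, 1 listed an event in a member: an exon of KRT8 in BRG1-mut replicate 2. Its PSI was 0.71 in control and 0.11 in BRG1-mut (Bayes factor 30.9), and BRG1-mut replicate 1 and the 6 comparisons of the other groups list no event in a member above a Bayes factor of 10. The exon (GRCh37 12:53343240-53343369, 130 bases, minus strand) belongs to 2 annotated KRT8 transcripts, neither of them canonical, and lies inside the coding part of exon 1 of KRT18 on the other strand (12:53342958-53343374). The sequences of its splice sites are shown because they place the exon on the KRT8 strand, from 5′ to 3′ in the direction of KRT8, with 20 intronic and 10 exonic bases and the intronic AG or GT in capitals.
acceptor (chr12:53343360-53343389): cctcctaccccttacctgAGccctcaggtc
donor (chr12:53343220-53343249): ctctgtccagGTaagaggccaggcggtcgt

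KRT8 had 217 and 136 counts in BRG1-mut and 116 and 77 in control. The exon overlaps KRT18, so these counts do not limit the reads on it, and reads there cannot be assigned without the strand. The PSI of 1 library has no replicate check. Events in 3 other places, which overlap the pseudogenes KRT8P46, KRT8P52 and KRT18P5, are not events of keratin genes.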

How the data were processed

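The study sequenced polyadenylated RNA, and per the labels the authors used TopHat2 2.0.4, HTSeq 0.6.1 and DESeq2 on GRCh37. Strand and multi-read settings are not given in the sources used here. Per the file headers and the methods, the deposited tables give the base mean (a signal: the mean over 4 libraries of counts divided by size factors), shrunken log2 fold changes and Wald p-values, unadjusted and adjusted. The authors' MISO tables give PSI as a fraction and the Bayes factor, a score, listed only above 10. A second copy of the BRG1-wt table was not used.

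The members and lists were chosen with earlier results of these data known. No table of counts was used: a base mean is a sum of whole counts, each divided by 4 size factors, so the 4 base means of a gene were resolved into 10 whole counts by lattice reduction, after each library's step had been read from low values. Libraries seen in all 4 tables are control. Size factors recomputed from the counts differed from those implied by at most 8.56e-05 (relative), and in a test on simulated data 100% of 30773 genes were recovered. The design had assumed that no counts per library could be had.

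Calls are the deposited adjusted p under 0.05. Alternatives were limma 3.58.1 (voom) in R 4.3.3 on the counts, genes with at least 10 counts in 2 libraries, size factors by median of ratios, Benjamini-Hochberg adjustment over 17943 genes, with or without the median deviation of genes of like GC content (50 bins, mean of at least 100) subtracted per library, and with each library left out. On simulated counts for BRM-wt against BRM-mut (17702 genes), 4-fold changes were recovered at 78% without and 100% with the subtraction. For 8-fold changes these were 98% and 100%. Without and with the subtraction, 0 and 21 unchanged genes were called beside 200 changed ones. The simulated counts carried the GC trends estimated from these libraries and the same dispersion for all genes. The simulation thus cannot show how well the subtraction suits the real libraries. The annotation was GENCODE lifted to GRCh37, which matched 55139 of 63152 IDs, and promoters were from RefSeq. Named genes are the 10 members, other keratins and list genes past the threshold in a table (at most 4 a list), neighbours in the clusters past it, and the 5 nearest to KRT80, of which 1 is not reported here. Intervals and count limits cover counting error only, and total counts set the precision.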

Additional observations from a re-analysis of the deposited data

Results flagged for a closer look

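The difference of KRT80 between BRM-wt and BRM-mut was 7.39 on the log2 scale and that of KRT8 was 2.71, and both were picked out because the effects of the 2 forms of BRM differed by a direct test (limma-voom with the GC trend of each library subtracted, adjusted p = 0.0059 and 0.012, higher in 2 of 2 BRM-wt libraries than in either BRM-mut library). Without the subtraction neither passed the correction with the same filter on low counts (adjusted p = 0.098 and 0.24, limma-voom), and with no filter KRT80 did (0.039) and KRT8 did not (0.20). KRT80 passed the filter through wild-type libraries alone, and its variance was estimated from all libraries, those that chose it included. Its p-values are thus not independent of the choice. Over the fits without the subtraction that leave out 1 library, the adjusted p of KRT80 ran from 0.036 to 0.35 and passed in 2 of 10. SMARCA2 counts, which come from the plasmids too, were 43748 and 214220 in BRM-wt and 222526 and 101280 in BRM-mut, so the amounts of BRM RNA overlap between these groups. For protein, the paper reports slightly more of each wild-type ATPase than of its mutant. The part of the amount of ATPase in these differences was not tested.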

How the results depend on the processing

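The number of members called in BRM-wt and in BRG1-wt was 3 in the deposited tables and stayed 3 at an adjusted p under 0.01, over every gene with a p-value, over genes whose base mean reached 100, at an absolute log2 fold change of at least 1 and with the GC trend subtracted, and so did the family count; BRG1-mut and BRM-mut stayed at 0. By limma-voom, an alternative chosen after seeing the data like all those on counts per library, the members and the family had 0 calls in both wild-type groups without a GC correction, with size factors or library totals, and with no filter on low counts 0 in BRM-wt and 2 in BRG1-wt. Leaving out 1 library at a time gave 0 to 3 calls in each wild-type group for members and family; with the GC trend subtracted 0 came up only without control library a or without control library b, and without the subtraction there were at most 2 calls. The cause of the loss without a GC correction was not tested. The log2 difference between BRM-wt and BRM-mut lost its call without the GC subtraction for KRT80 (7.60, with library totals 7.62), which kept it with no filter on low counts (7.71), and for KRT8 (2.90 with size factors, totals or no filter), and without 1 library it ran from 5.73 to 9.62 for KRT80, 2.14 to 3.75 for KRT8, 1.26 to 2.22 for KRT18 and −0.33 to 0.25 for KRT10. The KRT8 event was lost without replicate 2 (0 events in BRG1-mut). In BRG1-mut the hemidesmosome and AP-1 lists went from 1 call to 0 with the GC trend subtracted from the deposited values, and so did the cornified envelope list, of which no gene reached the base mean needed for that test; all 3 had 0 by limma-voom with or without the subtraction. The desmosome list kept its 1 call in BRG1-wt with the GC trend subtracted from the deposited values and had 0 by limma-voom with or without it, and the hemidesmosome list had 1 in BRG1-wt and BRM-wt by limma-voom with the subtraction and 0 without. No paired analysis was possible because the counts resolved from the base means carry no replicate number. Depth limits KRT7, KRT15, KRT17, KRT19, KRT81 and KRT86, at 14 counts or fewer per library.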
